A study of Mus musculus with 18 samples.

Results

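Bulge cells that had divided during a 3-day chase were compared with bulge cells that had not, in the skin of mice at postnatal day (PD) 21. The comparison used 6 of the 18 arrays of the series: 3 arrays of bulge cells with 1 to 2 divisions (divided) and 3 arrays of bulge cells with 0 divisions (undivided), 1 of each from mice 1, 2 and 3. The arrays were chosen by their titles, and divided and undivided arrays were paired by the mouse number in the title. All mice were K5tTA x pTRE-H2B-GFP (FvB and CD1 parents), in which the keratin 5 promoter drives a histone H2B-GFP label until doxycycline shuts it down, and all were fed doxycycline at 1 g per kg of food from PD18 to PD21. The label therefore reports divisions only in cells in which the keratin 5 promoter had been active, which are mainly basal epithelial cells. Non-bulge cells of the same 3 mice served as a further reference, and divided and undivided bulge of 3 other mice, chased from PD22 to PD25, as the same contrast at a later age. Fractions were sorted on surface CD34, α6-integrin and GFP, and each array held amplified RNA of 1 fraction of 1 mouse.

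The bulge is the part of the hair follicle outer root sheath that houses hair follicle stem cells. These cells rest for most of the hair cycle and are held at rest by BMP signals, while Wnt signals accompany the start of follicle growth. CD34 marks the mouse bulge on the cell surface, and Lhx2, Sox9, Tcf7l1, Nfatc1 and Runx1 are transcription factors known for their roles in follicle stem cells. Dilution of H2B-GFP separates cells by how often they divided, while CD34 and α6-integrin separate bulge from non-bulge cells.

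Levels are given as log2(signal + 16), where signal is the array's probe set intensity, so 1 unit is a 2-fold difference in signal + 16. Differences are divided minus undivided on that scale, with the standard error (SE) of a limma fit. The fit has the mouse as a block and 3 mice per group. Its SE is pooled over all fractions and both ages, so a gene has the same SE at PD21 and PD25. It does not show how far the PD21 mice differed from each other. For Igfbp5 (SE 0.55) mice 1, 2 and 3 differed by -5.36, -7.39 and -3.22, and for Kank2 (SE 0.20) by -2.09, -2.06 and -1.68. A gene passed at a Benjamini-Hochberg adjusted p under 0.05 over the 11569 genes tested.

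The markers of the sort followed the labels only in part. Cd34, which encodes the sorted surface protein, had 9.19, 7.91 and 9.68 in divided bulge of mice 1, 2 and 3, against 13.12, 12.40 and 12.67 in undivided bulge and 4.10, 4.10 and 5.36 in non-bulge. The divided values lay between the others in every mouse and overlapped neither: the difference from undivided bulge was -3.80 ± 0.42 (adjusted p = 2.53e-06) and that from non-bulge 4.41. Igfbp5, an insulin-like growth factor binding protein abundant in the bulge, had 7.41, 5.67 and 9.41 in divided bulge, against 12.76, 13.06 and 12.63 in undivided bulge and 5.48, 4.19 and 6.37 in non-bulge. Its difference of -5.32 ± 0.55 was the lowest of all genes tested, and the divided values overlapped those of non-bulge. Il33, an alarmin cytokine stored in the nuclei of epidermal keratinocytes, went the other way, with 10.90, 10.76 and 10.99 in divided bulge, against 7.03, 7.57 and 6.16 in undivided bulge and 11.35, 11.80 and 10.96 in non-bulge. Divided bulge thus carried Il33 at 3.96 ± 0.38 above undivided bulge, at values that overlapped those of non-bulge. Itga6, which encodes the α6-integrin used in the sort, had a difference of -0.03 ± 0.15 (adjusted p = 0.929, with 1 of its 2 probe sets of opposite sign). The basal keratins Krt5 and Krt14 differed by -0.05 ± 0.13 and 0.27 ± 0.14, and the bulge-enriched keratin Krt15 by -0.33 ± 0.13, and none of these passed. By the mean of its probe sets Krt14 passed at a difference of 0.64 (adjusted p = 0.0336), and Krt15 passed where only the 6 bulge arrays were fitted (adjusted p = 0.0377).

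**Figure D1:**
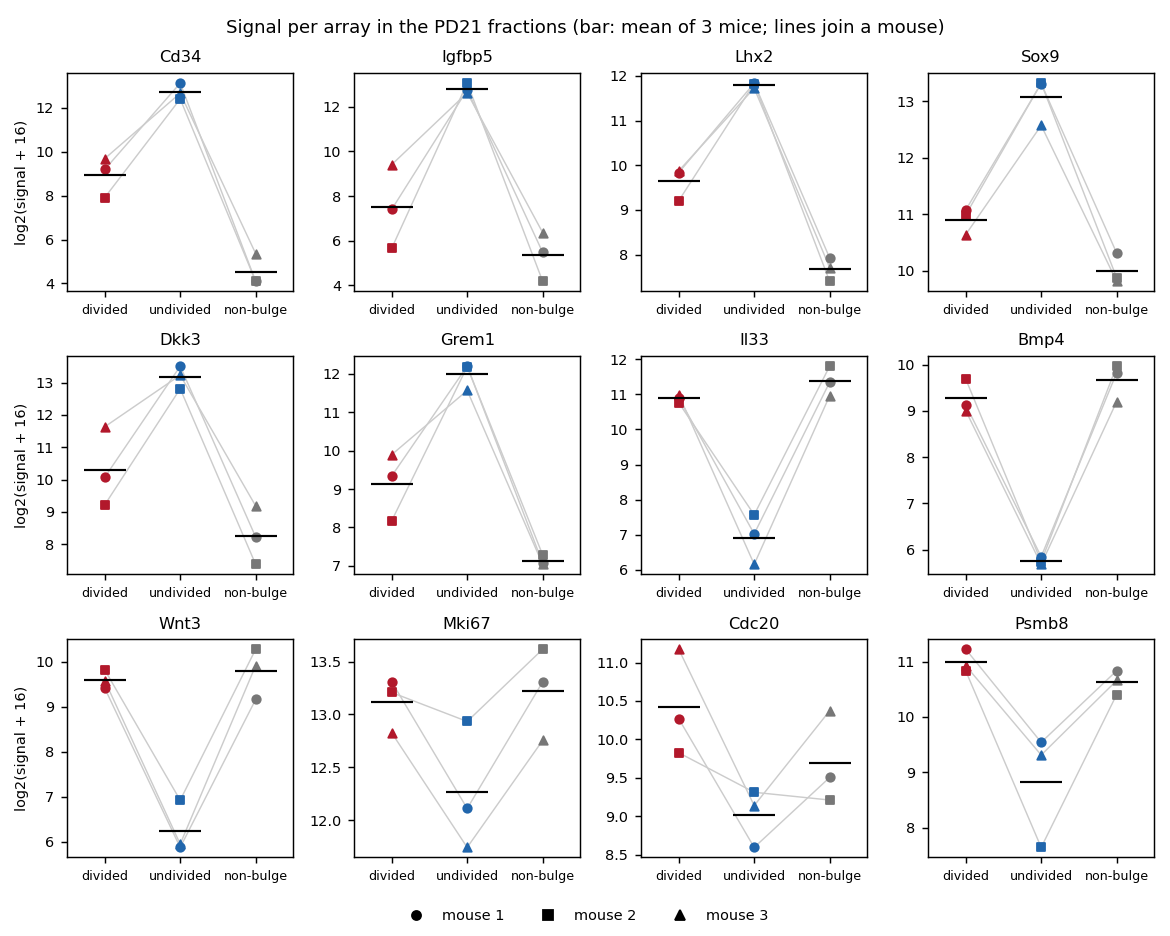
Level on the log2(signal + 16) scale of 12 genes in divided bulge (left, red), undivided bulge (middle, blue) and non-bulge (right, grey) at PD21; symbols are mice 1 to 3, grey lines join the fractions of a mouse and black bars are means. Divided bulge sits between the other fractions for Cd34 and Lhx2, and beside non-bulge for Il33, Bmp4 and Wnt3.

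Across the 11569 genes, the arrays of divided bulge were closer to those of non-bulge than to those of undivided bulge. Pearson's r across genes was 0.920 to 0.958 over the 9 pairs of a divided and a non-bulge array and 0.852 to 0.904 over the 9 pairs of a divided and an undivided array, beside 0.932 to 0.935 among the divided arrays. These r are a description across genes, which are not independent replicates. Each array held RNA of a whole sorted fraction. A share of non-bulge cells in the divided fraction and a change in each bulge cell therefore cannot be told apart, and neither was tested. Rose and fell mean only higher and lower in divided than in undivided bulge.

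Between divided and undivided bulge 1533 genes passed (13.3% of those tested), 757 higher (6.54%) and 776 lower (6.71%) in divided cells. The median difference over all genes was 0.07, differences ran from -5.32 to 4.59, and 1185 of the genes that passed differed at least 2-fold. The 3 mice moved alike for 1523 of the 1533, beside 5415 of all 11569 genes tested. Passing in a fit with the mouse as a block favours such agreement, so the 1523 partly follow from the selection. For 1346 of the 1533 no divided array overlapped an undivided one, while 23.7% of all genes tested had such separated groups. The count fell when any 1 mouse was left out, and most without mouse 1. It was 815 without mouse 1 (385 higher, 430 lower), 1033 without mouse 2 (513 higher, 520 lower) and 1043 without mouse 3 (479 higher, 564 lower). Fitted without the mouse block it was 958, of which 452 were higher and 506 lower. The shares of all genes, 6.54% higher and 6.71% lower, are the background against which each gene list is read, and a list's own shares stand in brackets after its counts. At an unadjusted p under 0.05 the shares of all genes were 13.9% higher and 11.6% lower. List counts without a mouse are read beside the counts of all genes without that mouse.

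**Figure D2:**
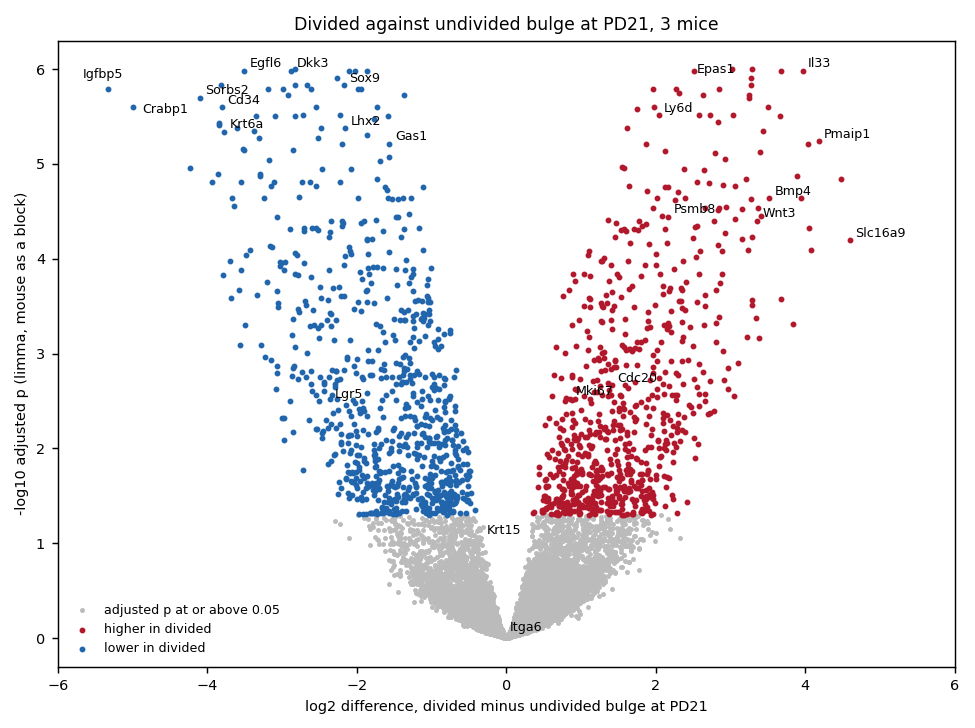
Difference between divided and undivided bulge at PD21 (x axis, log2) against -log10 of the adjusted p (y axis) for the 11569 genes tested; red genes were higher and blue genes lower in divided bulge at adjusted p under 0.05, and grey genes did not pass. Igfbp5 at -5.32 and Slc16a9 at 4.59 mark the ends of the x range, and Itga6 lies near 0.

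The bulge stem cell list, 40 genes known from follicle stem cells, was mostly lower in the divided than in the undivided fraction. Of its 38 tested members 27 were lower (71.1%, against 6.71% of all genes) and 1 was higher, with a median of -1.56. The 1 that rose was Il1r2, a decoy receptor for interleukin 1, described with its family. Leaving out mouse 1, 2 or 3 left 27, 24 or 23 lower members. The median difference over the 38 was -1.81 in mouse 1, -1.71 in mouse 2 and -1.25 in mouse 3. Mouse 3 held the highest divided value of 13 of the 27 members that fell (48.1%, against 42.0% of all genes tested). Set beside non-bulge, 8 of the 38 members passed, all higher in divided bulge, with a median of 0.625, where 0.424% of all genes passed.

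Among transcription factors of follicle stem cells, 12 of 30 tested members were lower (40%) and 3 higher (10%), with a median of -0.37. Lhx2, a LIM homeodomain factor that maintains the bulge, had 9.84, 9.21 and 9.87 in divided bulge, against 11.84, 11.83 and 11.72 in undivided bulge and 7.93, 7.41 and 7.71 in non-bulge. The 3 fractions did not overlap, and divided differed from undivided bulge by -2.16 ± 0.25 (adjusted p = 4.22e-06) and from non-bulge by 1.96 (adjusted p = 0.000292). Sox9, needed to form and keep follicle stem cells, had 11.07, 10.99 and 10.64 in divided bulge, against 13.31, 13.32 and 12.57 in undivided bulge. Its difference was -2.17 ± 0.22 (adjusted p = 1.48e-06), and it stood 0.90 above non-bulge, which did not pass (adjusted p = 0.084). Runx1, a regulator of the rest-to-growth step of the hair cycle, fell by 1.86 ± 0.22, and Tbx1, a T-box factor active in the bulge, fell by 2.62 ± 0.34. The 6 probe sets of Runx1 ranged from -2.25 to -0.10, so at least 1 of them showed almost no change. Tcf7l1 (TCF3), a Wnt pathway factor that acts mostly as a repressor, had 5.74, 7.21 and 6.90 in divided bulge, against 8.55, 8.38 and 9.66 in undivided bulge. Its difference of -2.25 ± 0.51 passed (adjusted p = 0.00395) but not without mouse 3 (-1.99, adjusted p = 0.0602). Hmga2, an architectural chromatin protein of stem and progenitor cells, had 5.53, 4.13 and 7.12 in divided bulge, against 8.48, 8.41 and 8.39 in undivided bulge, a difference of -2.83 ± 0.57. The 3 probe sets of Hmga2 ranged from -2.83 to -0.61. Nfatc1, which restrains bulge cell division, differed by -0.68 ± 0.25 and did not pass (adjusted p = 0.0815), although it passed at -1.24 by the mean of its probe sets (adjusted p = 0.0218).

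Sox21 and Sox6, both SRY-box factors, rose in divided cells. Sox21, active in differentiating hair and epidermal cells, had 11.98, 12.16 and 12 in divided bulge, against 9.66, 9.96 and 8.87 in undivided bulge and 12.34, 12.32 and 12.38 in non-bulge, a difference of 2.55 ± 0.37. Sox6 had 8.09, 9.13 and 8.80 in divided bulge, against 6.99, 5.43 and 5.84 in undivided bulge. Of 27 homeobox genes 8 were lower (29.6%) and 1 higher (3.70%), among them Hoxc13, which controls hair keratin genes and fell by 2.28 ± 0.46 (adjusted p = 0.00154). The count of lower homeobox genes was 4 without mouse 1, 4 without mouse 2 and 6 without mouse 3, while the calls over all genes fell as well.

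Genes were ranked by size only if they passed, moved alike in the 3 mice and had separated groups. The higher group mean also had to lie above 9.19, the median of group means. This left 463 higher and 536 lower genes. The 12 largest increases named by size began with Slc16a9, a transporter of the monocarboxylate family, which had 11.23, 10.23 and 10.98 in divided bulge, against 4.10, 7.46 and 7.10 in undivided bulge. Its undivided values were scattered, yet all lay below every divided value, and the difference was 4.59 ± 0.68 (adjusted p = 6.37e-05). Pmaip1, which encodes the pro-apoptotic BH3 protein Noxa, had 9.31, 9.43 and 9 in divided bulge, against 4.08, 5.97 and 5.15 in undivided bulge, where all 3 values lay below the median of their array. Ppp2r2c, a regulatory subunit of protein phosphatase 2A, had 10.41, 10.67 and 10.36 in divided bulge, against 7.14, 6.81 and 6.47 in undivided bulge (3.67 ± 0.34, adjusted p = 1.04e-06). Its divided values matched those of non-bulge, 10.64, 10.75 and 10.36, closely in each mouse.

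The others of the 12, beside Il33 and Bmp4, differed by 3.50 to 4.08. Efemp1 encodes the matrix protein fibulin-3 (4.08 ± 0.62), Dpp4 a surface dipeptidyl peptidase (3.95 ± 0.53) and Adgrg2 an adhesion G protein-coupled receptor (3.68 ± 0.62). Cpxm2 encodes a carboxypeptidase-like secreted protein (3.66 ± 0.41), Itih5 a hyaluronan-associated inhibitor heavy chain (3.50 ± 0.38) and Ripply3 a transcriptional repressor that works with T-box factors (3.90 ± 0.50). The transcript 4930550C14Rik differed by 4.04 ± 0.48. Set against non-bulge cells, divided bulge differed in these 12 by -0.88 (Ripply3) to 0.41 (4930550C14Rik), and none of the 12 passed in that comparison.

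The 12 largest decreases began with Igfbp5 and held Cd34, and the second in size was Crabp1 at -4.99, a cytoplasmic retinoic acid binding protein. Crabp1 had 5.54, 4.40 and 8.37 in divided bulge, against 11.25, 10.88 and 11.16 in undivided bulge, so its divided values were scattered while the undivided ones lay close together. Sorbs2, an adaptor of the actin cytoskeleton, had 5.72, 6.42 and 6.94 in divided bulge, against 10.46, 10.73 and 10.17 in undivided bulge (-4.09 ± 0.44, adjusted p = 2.01e-06). Dab2, an endocytic adaptor, had 7.01, 6.32 and 9.54 in divided bulge, against 11.42, 11.17 and 11.82 in undivided bulge. In both, every divided value lay below every undivided one, and mouse 3 was the highest of the divided arrays.

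Krt6a, a keratin of the companion layer and inner bulge, had 9.92, 8.92 and 10.41 in divided bulge, against 14.02, 13.34 and 13.20 in undivided bulge, and passed also as higher than non-bulge (2.31, adjusted p = 0.0123). Scrg1, a small secreted protein, had 6.78, 7.64 and 8.32 in divided bulge, against 11.84, 11.11 and 11.26 in undivided bulge (-3.82 ± 0.39). The remaining decreases were Csrp2, a LIM protein (-3.85 ± 0.49), Col5a2, a fibrillar collagen chain (-3.84 ± 0.44), Amot, an angiomotin that binds Yap (-3.79 ± 0.61), Igdcc4, an immunoglobulin superfamily receptor (-3.69 ± 0.57), and Camk4, a calcium-dependent kinase (-3.68 ± 0.62). Camk4 had 6.34, 5.12 and 8.51 in divided bulge, against 10.73, 10.01 and 10.25 in undivided bulge, again with mouse 3 the highest of the divided arrays.

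Signals of the hybridisation controls and array medians differed between mice. The hybridisation control BioB was 2123.5 to 2255.8 signal units on the 3 PD21 arrays of mouse 3, against 554.2 to 831.4 on the 6 arrays of mice 1 and 2, and array medians were 105.3 to 116.6 against 60.3 to 81.7. The divided and undivided arrays of mouse 3 both had the higher values. The 3' to 5' ratio of the Gapdh control probe sets differed between fractions in mouse 3, at 9.67 on the divided and 3.21 on the undivided array, while it was 9.05 and 8.58 in mouse 1 and 5.62 and 6.19 in mouse 2. The part of these measures in the results was not tested.

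**Figure D3:**
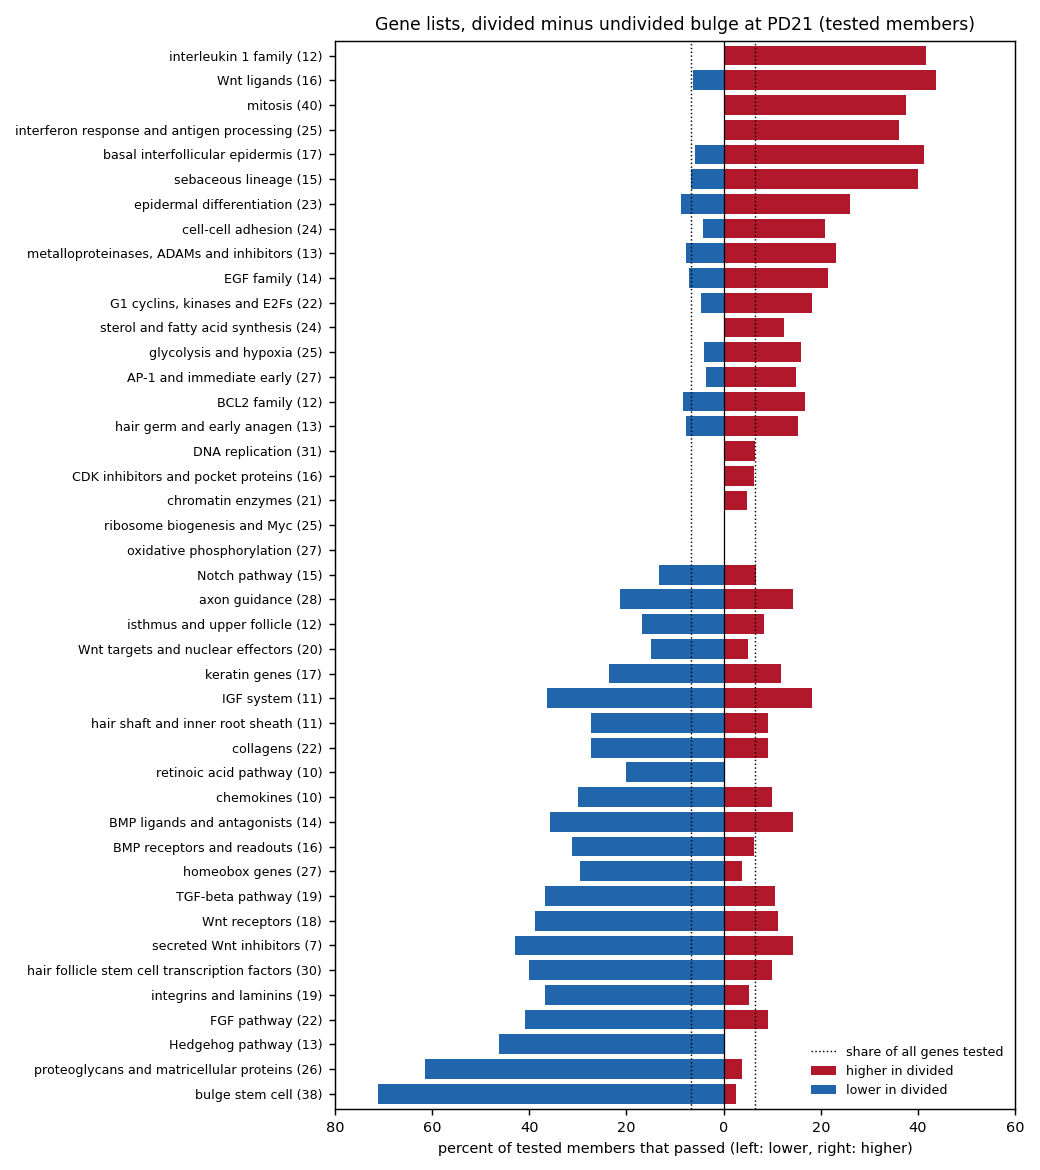
Percent of the tested members of each gene list that passed as higher (right, red) or lower (left, blue) in divided than in undivided bulge at PD21; the number of tested members is in brackets and dotted lines give the shares over all genes tested, 6.54% higher and 6.71% lower. The bulge stem cell list (71.1% lower) and the proteoglycan and matricellular list (61.5% lower) stand at the bottom, and the interleukin 1 and Wnt ligand lists at the top.

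Wnt pathway genes changed in both directions. Of 7 tested secreted inhibitors 3 fell (42.9%) and 1 rose (14.3%), with a median of -0.87. Dkk3, a secreted protein of the Dickkopf family, had 10.07, 9.22 and 11.63 in divided bulge, against 13.51, 12.81 and 13.23 in undivided bulge and 8.22, 7.38 and 9.19 in non-bulge. In each mouse the divided value lay between the others, and divided differed from undivided bulge by -2.88 ± 0.28 and from non-bulge by 2.04 (adjusted p = 1.04e-06 and 0.000456). Sfrp1, a decoy that binds Wnt ligands, had 10.63, 11.19 and 11.52 in divided bulge, against 14.11, 14.02 and 13.21 in undivided bulge. Apcdd1, a membrane-bound Wnt inhibitor, rose instead, with 14.20, 14.17 and 13.02 in divided bulge, against 12.53, 12.97 and 11.20 in undivided bulge (1.57 ± 0.20).

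Of 16 tested Wnt ligands and secretion factors 7 rose (43.8%, against 6.54% of all genes) and 1 fell (6.25%), with a median of 0.97. Without mouse 1 or mouse 2 the count of higher members was 3, and without mouse 3 it was 6. Wnt3 had 9.41, 9.82 and 9.58 in divided bulge, against 5.87, 6.92 and 5.95 in undivided bulge and 9.16, 10.28 and 9.92 in non-bulge, and differed by 3.36 ± 0.47 (adjusted p = 3.97e-05). Wnt16 had 8.69, 6.59 and 7.2 in divided bulge, against 4.15, 4.20 and 5.24 in undivided bulge, where all 3 values lay below the array median, and without mouse 1 its difference of 2.18 did not pass (adjusted p = 0.0917). Wnt5b, a ligand best known outside the beta-catenin branch, was the 1 that fell, with 6.27, 5.68 and 7.76 in divided bulge, against 9.46, 8.89 and 10.03 in undivided bulge. The 2 probe sets of Wnt5b differed by -2.89 and -0.90.

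Of 18 Wnt receptors 7 fell (38.9%) and 2 rose (11.1%). Fzd2, a Frizzled receptor, had 10.83, 10.32 and 11.28 in divided bulge, against 13.59, 13.33 and 13.13 in undivided bulge and 8.72, 9.96 and 9.40 in non-bulge (-2.54 ± 0.28, adjusted p = 2.52e-06). Fzd1 fell by 2.22 ± 0.29. Lgr5, the R-spondin receptor of cycling and resting follicle stem cells, had 6.15, 5.27 and 6.85 in divided bulge, against 7.87, 8.85 and 8.86 in undivided bulge, and all 3 divided values lay below the array median. Its difference of -2.44 ± 0.51 passed (adjusted p = 0.00209), though not without mouse 2 (-1.87, adjusted p = 0.0549). Of 20 targets and nuclear effectors 3 fell (15%) and 1 rose (5.00%, below the share of all genes). Lef1, the DNA-binding partner of beta-catenin, had 7.93, 6.16 and 9.30 in divided bulge, against 10.65, 10.24 and 10.58 in undivided bulge, while the target gene Axin2 had 10.98, 11 and 11.29 in divided bulge, against 9.99, 9.91 and 10.73 in undivided bulge. Axin2 passed at 0.88 ± 0.23 (adjusted p = 0.0136), but not without mouse 1 (0.82, adjusted p = 0.129), without mouse 2 (0.77, adjusted p = 0.123), without the mouse block (adjusted p = 0.0558) or by the mean of its probe sets (0.58, adjusted p = 0.147).

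BMP ligands and antagonists moved in both directions. Bmp4, a ligand of the pathway, had 9.13, 9.69 and 9.01 in divided bulge, against 5.85, 5.74 and 5.68 in undivided bulge and 9.82, 9.97 and 9.20 in non-bulge, a difference of 3.52 ± 0.47 (adjusted p = 2.31e-05). All 3 undivided values lay below the array median. Grem1 (gremlin), a secreted BMP antagonist, had 9.34, 8.18 and 9.90 in divided bulge, against 12.20, 12.19 and 11.57 in undivided bulge and 7.07, 7.29 and 7.04 in non-bulge. Divided bulge was 2.85 ± 0.35 below undivided bulge and 2.01 above non-bulge. Fstl1, a follistatin-related secreted protein, had 7.69, 9.04 and 10.12 in divided bulge, against 11.19, 10.64 and 11.28 in undivided bulge and 5.33, 5.47 and 6.85 in non-bulge. The 2 probe sets of Fstl1 differed by -2.09 and -0.97. In the list as a whole 5 of 14 were lower (35.7%), with 5, 3 and 4 lower without mouse 1, 2 and 3 and 2 lower without the mouse block, and 2 were higher (14.3%).

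Of 16 BMP receptors and readouts 5 fell (31.2%) and 1 rose (6.25%), and the 5 were 4 Id genes, whose products block bHLH factors and follow BMP signals, and the feedback inhibitor Smad7. Id3 had 9.38, 9.55 and 10.48 in divided bulge, against 12.23, 12.43 and 12.39 in undivided bulge (-2.54 ± 0.33), and Id2 fell by 2.20 ± 0.31. Id4 had 12.87, 13.07 and 12.45 in divided bulge, against 15.29, 14.95 and 13.69 in undivided bulge and 10.39, 10.83 and 9.94 in non-bulge, with no overlap between fractions. Smad7 had 5.95, 5.24 and 7.74 in divided bulge, against 8.09, 7.54 and 11.11 in undivided bulge, so the groups overlapped while each mouse moved down. The receptor gene Bmpr1b was the 1 that rose, with 8.71, 8.24 and 8.29 in divided bulge, against 6.89, 5.76 and 5.50 in undivided bulge (2.36 ± 0.50, adjusted p = 0.00209). The 3 probe sets of Bmpr1b ranged from 0.60 to 2.36.

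In the TGF-beta list 7 of 19 members fell (36.8%) and 2 rose (10.5%), with a median of -0.64. The receptors parted: Tgfbr1 had 8.14, 8.69 and 9.68 in divided bulge, against 10.74, 10.37 and 10.83 in undivided bulge. Tgfbr2 had 10.53, 10.71 and 10.61 in divided bulge, against 8.5, 9.01 and 9.29 in undivided bulge. The differences were -1.81 ± 0.30 and 1.68 ± 0.28, with adjusted p of 0.000179 and 0.000195. Among the latent TGF-beta binding proteins, which hold the ligand in the matrix, Ltbp2 fell by 3.43 ± 0.52 and Ltbp1 by 2.20 ± 0.31.

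Of 13 Hedgehog pathway members 6 fell (46.2%, against 6.71% of all genes) and 0 rose in limma, with a median of -1.03. At an unadjusted p under 0.05 the counts were 10 lower (76.9%, against 11.6% of all genes) and 0 higher. The count of 6 was 2 without mouse 1, 2 without mouse 2 and 4 without mouse 3. Gas1, a co-receptor that helps cells bind Hedgehog, had 12.39, 12.30 and 12.18 in divided bulge, against 14.23, 14.10 and 13.23 in undivided bulge and 12.30, 12.36 and 12.34 in non-bulge. Its divided and non-bulge values overlapped, and the difference from undivided bulge was -1.56 ± 0.19 (adjusted p = 6.11e-06). Boc, another co-receptor, fell by 1.85 ± 0.28.

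The FGF list had 9 of 22 members lower (40.9%) and 2 higher (9.09%), with a median of -0.66, and 5 lower without mouse 1. Fgfr1, a receptor, had 9.22, 9.34 and 10.40 in divided bulge, against 12.31, 11.85 and 12.23 in undivided bulge (-2.47 ± 0.29). Fgf1, a ligand, had 7.04, 6.63 and 8.82 in divided bulge, against 10.62, 10.33 and 10.86 in undivided bulge, and Il17rd, a feedback inhibitor of FGF signals, fell by 1.65 ± 0.30. Fgfbp1, a secreted carrier that releases FGFs from the matrix, rose by 1.66 ± 0.25, with 12.05, 12.62 and 11.99 in divided bulge, against 10.61, 10.82 and 10.26 in undivided bulge. In the EGF family of 14, 3 members were higher (21.4%) and 1 lower (7.14%), with 1 higher without mouse 2 or mouse 3. The ligand Epgn (epigen) had 8.14, 10.01 and 9.90 in divided bulge, against 6.20, 7.78 and 6.99 in undivided bulge (2.36 ± 0.37), while the receptor Egfr was lower by a smaller step, -0.73 ± 0.18, and did not pass without mouse 1 (adjusted p = 0.0953) or without mouse 2 (adjusted p = 0.0632).

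Of 11 tested genes of the IGF system 4 fell (36.4%), Igfbp5, Igfbp7, Igfbp4 and Igf2r, and 2 rose (18.2%), Igfbp2 and Igfbp3. Igfbp4 was named after its values were seen. The lower count was 2, 3 and 4 without mouse 1, 2 and 3, and the higher count 0, 1 and 0. Without the mouse block these counts were 3 and 0. Igfbp2 lost its call in 10 of 14 other settings of the fit and Igfbp3 in 6 of 15. Igf2r did not pass without mouse 1 or by the mean of its probe sets. Igfbp7, another insulin-like growth factor binding protein, had 11.63, 11.04 and 10.79 in divided bulge, against 13.27, 13.13 and 13.02 in undivided bulge (-1.99 ± 0.21, adjusted p = 1.63e-06). Of 15 Notch genes 1 rose (6.67%, close to the share of all genes), the ligand Dll1 at 1.42 ± 0.26, and 2 fell (13.3%), among them Lfng, a glycosyltransferase that tunes Notch receptors, at -1.38 ± 0.29. Lfng did not pass without mouse 3 (-1.11, adjusted p = 0.0607). Among 28 guidance genes 6 fell (21.4%) and 4 rose (14.3%), and the counts were 3 and 1 without mouse 1 and 2 and 2 without mouse 2. Sema3e, a secreted semaphorin, had 10.35, 8.97 and 10.80 in divided bulge, against 13.10, 12.61 and 12.54 in undivided bulge and 6.51, 6.27 and 8.68 in non-bulge. The Slit receptor Robo1 went the other way, with 11.41, 11.59 and 10.52 in divided bulge, against 8.01, 9.19 and 9.09 in undivided bulge.

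Of 10 tested chemokine and chemokine receptor genes 3 were lower (30.0%) and 1 was higher (10%), with a median of 0.08, and 3 were lower also without each mouse in turn. Cxcr4, the receptor of Cxcl12, had 8.22, 8.11 and 8.71 in divided bulge, against 11.61, 11.90 and 10.46 in undivided bulge and 4.32, 6.27 and 6.38 in non-bulge. Cxcl12 had 6.75, 7.71 and 8.11 in divided bulge, against 10.58, 10.38 and 9.98 in undivided bulge, and Cxcl14 had 11.88, 11.54 and 12.37 in divided bulge, against 14.26, 13.96 and 13.37 in undivided bulge. The differences were -2.98 ± 0.47 for Cxcr4, -2.79 ± 0.45 for Cxcl12 and -1.93 ± 0.31 for Cxcl14.

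**Figure D4:**
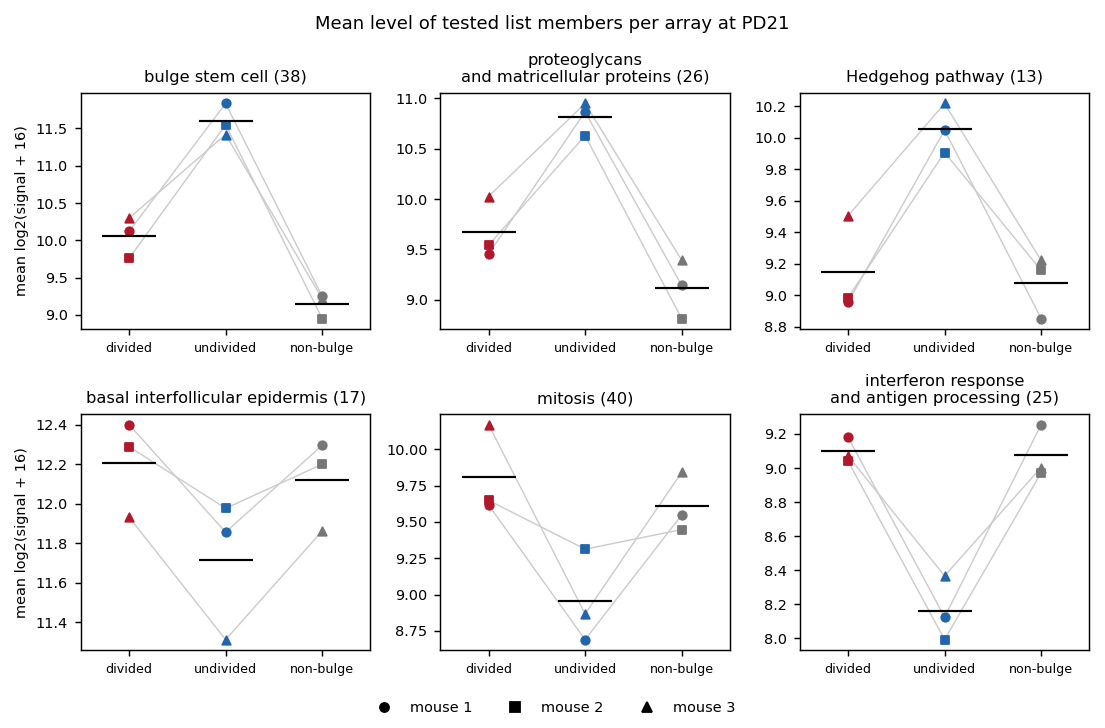
Mean level (log2(signal + 16)) of the tested members of 6 gene lists on each PD21 array, in divided bulge (left), undivided bulge (middle) and non-bulge (right); symbols are mice 1 to 3, grey lines join a mouse and black bars are means. The bulge list averaged 9.76 to 10.30 in divided bulge, against 11.42 to 11.84 in undivided bulge and 8.95 to 9.25 in non-bulge.

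Of 26 tested proteoglycans and matricellular proteins 16 were lower (61.5%, against 6.71% of all genes) and 1 higher (3.85%), with a median of -1.34, and 13 were lower without mouse 1, without mouse 2 or without mouse 3. Egfl6, a secreted basement membrane protein that anchors the arrector pili muscle to the bulge, had 8, 7.81 and 9.12 in divided bulge, against 11.84, 11.44 and 12.16 in undivided bulge (-3.51 ± 0.34, adjusted p = 1.04e-06). Ccn2 (CTGF), a matricellular protein that follows Yap and TGF-beta signals, had 12.06, 9.35 and 12.63 in divided bulge, against 14.99, 14 and 13.61 in undivided bulge. Mouse 2 had the lowest divided value, and the mice differed by -2.93, -4.65 and -0.97. Cspg4 (NG2), a membrane proteoglycan, had 9.80, 10.10 and 10.99 in divided bulge, against 13.21, 12.72 and 12.77 in undivided bulge and 8.43, 5.20 and 8.28 in non-bulge. Gpc6, a glypican, had 4.20, 6.48 and 8.43 in divided bulge, against 10.08, 9.29 and 10.41 in undivided bulge, and Bgn (biglycan) fell by 2.5 ± 0.41.

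Of 22 collagen genes 6 fell (27.3%) and 2 rose (9.09%), and 6 were lower also without each mouse in turn. Col6a1 had 6.72, 7.29 and 8.64 in divided bulge, against 10.45, 10.48 and 11.14 in undivided bulge, while Col3a1, a fibrillar collagen typical of fibroblasts, had 7.04, 7.31 and 8.53 in divided bulge, against 4.34, 4.82 and 5.38 in undivided bulge. Of 19 integrins and laminins 7 fell (36.8%) and 1 rose (5.26%), with 4 lower without mouse 1 or mouse 2. Itga1, the collagen-binding α1 chain, fell by 2.77 ± 0.48, Itgb6, the β6 chain of a TGF-beta activating integrin, by 2.36 ± 0.34 and the laminin chain Lamb1 by 1.64 ± 0.26. Timp2, an inhibitor of metalloproteinases, had 9.24, 8.94 and 10.30 in divided bulge, against 12.51, 12.15 and 12.32 in undivided bulge (-2.83 ± 0.25, adjusted p = 1e-06).

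Markers of other cell types were read beside these matrix genes. The summed signal of 17 measured fibroblast and papilla markers was 9347 to 14212 in divided bulge, against 20112 to 33788 in undivided bulge and 7897 to 8916 in non-bulge. Of the 17, 8 lay below the array median on all 6 arrays, among them Dcn, Lum and Pdgfra. Of the 8 that were tested, Col1a2 and Col3a1 rose and Col6a1 and Sparc fell in divided cells. Col1a2 did not pass without mouse 1, without mouse 3, without the mouse block or by the mean of its probe sets. The calls of Col3a1, Col6a1 and Sparc held in each other setting of the fit. Likewise 8 of 12 endothelial markers, Pecam1 and Cdh5 included, 8 of 11 muscle markers, 7 of 12 melanocyte markers, Tyr and Tyrp1 included, and 6 of 19 immune markers, Ptprc included, lay below the array median on all 6 arrays. Bright enough to be tested were 12 of 19 immune, 4 of 12 melanocyte, 2 of 12 endothelial and 2 of 11 muscle markers, beside 11569 of 18193 of all genes. Immune markers were thus about as often bright as other genes, and dim markers do not show that a cell type was absent. Summed endothelial signal was 378.2 to 936.6 in divided and 309 to 484.2 in undivided bulge, and summed immune signal 4473 to 5822 in divided and 3214 to 4237 in undivided bulge. Summed muscle signal was 312.9 to 391.6 in divided and 204.8 to 326.6 in undivided bulge, and 1 of its 2 tested members, Tagln, rose. Tagln did not pass without the mouse block, nor with any 1 of the mice left out. Summed melanocyte signal was 567.5 to 1409.9 in divided and 1249 to 4014 in undivided bulge, and the 1 of its 4 tested members that passed was Mitf, which fell by 2.08 ± 0.32. The part of other cell types in the result was not tested, and fewer cells of a type and less RNA per cell cannot be told apart in such samples.

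Several epidermal genes rose. Of 17 tested genes of basal interfollicular epidermis 7 were higher (41.2%, against 6.54% of all genes) and 1 lower (5.88%), with a median of 0.70. The higher count was 6 without mouse 1, without mouse 2 or without mouse 3 and 4 without the mouse block. Ly6d, a surface protein of committed epithelial cells, had 13.06, 13.05 and 11.95 in divided bulge, against 10.72, 10.57 and 10.65 in undivided bulge and 12.68, 12.96 and 12.14 in non-bulge (2.04 ± 0.23, adjusted p = 3.06e-06). Klf5, a Krüppel-like factor of proliferating epithelium, had 11.69, 11.98 and 11.16 in divided bulge, against 9.80, 10.04 and 9.72 in undivided bulge. Gata3, a factor of epidermal and inner root sheath differentiation, rose by 1.37 ± 0.22. In each of these genes the divided values overlapped those of non-bulge.

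Of 23 tested differentiation genes 6 rose (26.1%) and 2 fell (8.70%), and 1 rose without the mouse block. Tgm3, a transglutaminase of the cornified envelope, had 10.34, 10.78 and 9.86 in divided bulge, against 7.37, 7.33 and 6.64 in undivided bulge (3.21 ± 0.41). Krt1, an early keratin of differentiation, had 13.96, 14.19 and 13.19 in divided bulge, against 12.79, 13.37 and 12.43 in undivided bulge. Its groups overlapped while each mouse moved up, and it did not pass without the mouse block (adjusted p = 0.177), with the mouse as a random effect (adjusted p = 0.0565) or without mouse 1 (0.79, adjusted p = 0.108). Calml3, a calmodulin-like protein of epithelia, fell, with 11.39, 10.71 and 11.37 in divided bulge, against 14.09, 13.88 and 13.05 in undivided bulge. In the separate list of 17 tested keratin genes 4 fell (23.5%) and 2 rose (11.8%). The lower count was 3, 2 and 2 without mouse 1, 2 and 3, and 2 without the mouse block. Krt24, a type I keratin of that list, had 9.61, 8.31 and 9.84 in divided bulge, against 13.39, 12.38 and 12.57 in undivided bulge (-3.53 ± 0.43).

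Of 24 cell-cell adhesion genes 5 rose (20.8%) and 1 fell (4.17%), with 3 higher without mouse 2, without mouse 3 or without the mouse block. Ocln (occludin), a tight junction protein, had 9.85, 9.99 and 9.82 in divided bulge, against 7.87, 8.48 and 6.69 in undivided bulge, and Dsg2, a desmosomal cadherin, rose by 1.54 ± 0.26. Cadm1, an immunoglobulin-type adhesion molecule, was the 1 that fell, by 1.37 ± 0.20. Of 15 sebaceous lineage genes 6 rose (40%) and 1 fell (6.67%). Pparg, the nuclear receptor that drives lipid cell fate, had 8.44, 7.59 and 7.19 in divided bulge, against 5.52, 5.46 and 4.59 in undivided bulge (2.55 ± 0.54), Acsbg1, a fatty acid activating enzyme, rose by 2.15 ± 0.39 and Mgst1, a membrane glutathione transferase, by 1.40 ± 0.28.

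Several mitotic genes rose in the cells that had divided. Of 40 tested mitosis genes 15 rose (37.5%, against 6.54% of all genes) and 0 fell in limma, with a median of 0.85. At an unadjusted p under 0.05 the counts were 23 (57.5%, against 13.9% of all genes) and 0. The count rested on the mice used: 5 without mouse 1, 17 without mouse 2 and 4 without mouse 3, and 6 without the mouse block. The median difference over the 40 was 0.99 in mouse 1, 0.28 in mouse 2 and 1.25 in mouse 3, with 37, 29 and 40 members higher in those mice. Of 31 DNA replication genes 2 rose, Pola1 (1.12 ± 0.35) and Lig1 (0.86 ± 0.26), a share of 6.45% that is near the 6.54% of all genes, and 0 fell in limma. The median was 0.31, and at an unadjusted p under 0.05 the counts were 6 (19.4%, against 13.9% of all genes) and 0. Their mouse medians were 0.40, -0.01 and 0.49. Pola1 and Lig1 did not pass without mouse 1 (adjusted p = 0.229 and 0.0747), without mouse 3 (adjusted p = 0.243 and 0.249) or without the mouse block (adjusted p = 0.0977 and 0.135).

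The promoters of 4 genes that rose are shown because many mitotic genes share a short element, the cell cycle gene homology region (CHR, TTTGAA), next to their start sites, while many interferon-responsive genes share another, the interferon-stimulated response element (ISRE, GAAA and GAAA with any 2 bases between them). Both motifs and CCAAT were searched on both strands of 32851 RefSeq promoter windows (GRCm38.p6), each from 250 bases before to 50 bases after the start. For each of the mitosis and interferon lists the windows printed are those of the members with the lowest p that passed, rose and held the motif. Capitals mark the matches of that list's motif on either strand.
Cdc20, chr4:118437294-118437593, minus strand: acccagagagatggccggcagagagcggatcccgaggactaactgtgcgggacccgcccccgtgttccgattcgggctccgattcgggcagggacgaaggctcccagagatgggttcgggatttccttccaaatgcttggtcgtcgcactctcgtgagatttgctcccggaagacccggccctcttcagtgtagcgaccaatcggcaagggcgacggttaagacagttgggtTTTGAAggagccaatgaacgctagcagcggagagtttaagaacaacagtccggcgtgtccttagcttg
Anln, chr9:22389157-22389456, minus strand: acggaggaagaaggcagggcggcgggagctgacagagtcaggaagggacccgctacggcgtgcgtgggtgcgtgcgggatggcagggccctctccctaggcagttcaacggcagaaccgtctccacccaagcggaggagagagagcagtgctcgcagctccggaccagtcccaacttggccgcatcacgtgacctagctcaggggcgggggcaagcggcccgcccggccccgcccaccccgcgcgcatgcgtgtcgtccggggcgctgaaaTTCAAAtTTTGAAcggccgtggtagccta
B2m, chr2:122147437-122147736, plus strand: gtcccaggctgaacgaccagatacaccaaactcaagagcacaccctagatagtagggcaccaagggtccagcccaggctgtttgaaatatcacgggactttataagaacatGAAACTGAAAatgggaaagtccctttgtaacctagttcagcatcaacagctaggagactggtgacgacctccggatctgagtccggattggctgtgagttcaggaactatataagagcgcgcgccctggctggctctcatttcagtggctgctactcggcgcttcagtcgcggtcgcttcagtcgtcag
Ddx58, chr4:40239776-40240075, minus strand: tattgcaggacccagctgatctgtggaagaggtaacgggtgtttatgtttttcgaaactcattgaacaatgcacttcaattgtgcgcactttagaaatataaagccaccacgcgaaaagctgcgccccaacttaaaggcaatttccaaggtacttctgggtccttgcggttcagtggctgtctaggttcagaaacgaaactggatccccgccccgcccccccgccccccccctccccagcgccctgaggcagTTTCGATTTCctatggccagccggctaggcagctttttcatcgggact
Of the tested members 34 of 40 mitosis and 21 of 25 interferon genes matched a window, some of them several. TTTGAA was found in 28 of 37 windows of tested mitosis genes (75.7%), in 12 of 15 windows of those that rose (80.0%) and in 17.9% of all windows. It was in 9.68% of windows of tested DNA replication genes. CCAAT was in 75.7% of the mitosis windows and in 37.4% of all windows. These matches describe letters in a window and not bound sites.

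Cdc20, the activator of the anaphase-promoting complex, had 10.27, 9.83 and 11.17 in divided bulge, against 8.59, 9.31 and 9.14 in undivided bulge and 9.50, 9.21 and 10.37 in non-bulge. Every divided value lay above every undivided one, and the difference of 1.41 ± 0.30 passed (adjusted p = 0.00216), though not without mouse 3 (1.10, adjusted p = 0.0705). Anln (anillin), a scaffold of the cytokinetic ring, had 9.40, 9.69 and 10.32 in divided bulge, against 7.37, 9.17 and 8.80 in undivided bulge (1.36 ± 0.30), and did not pass without mouse 1 (1.02, adjusted p = 0.0886). Ccnb2, a B-type cyclin, had 9.60, 9.68 and 10.28 in divided bulge, against 8.22, 8.98 and 8.28 in undivided bulge, and did not pass without mouse 1 (1.35, adjusted p = 0.059) or mouse 3 (1.04, adjusted p = 0.118). Mki67, which encodes the proliferation antigen Ki-67, had 13.31, 13.21 and 12.82 in divided bulge, against 12.11, 12.93 and 11.74 in undivided bulge. Its groups overlapped while each mouse moved up (0.85 ± 0.19, adjusted p = 0.00299), and it did not pass without mouse 1 (0.68, adjusted p = 0.0956), without mouse 3 (0.74, adjusted p = 0.0621) or without the mouse block (adjusted p = 0.109). Top2a, the DNA topoisomerase of S phase and mitosis, differed by 0.71 ± 0.29 and did not pass (adjusted p = 0.11). It passed where only the 9 PD21 arrays were fitted (adjusted p = 0.0472).

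Cyclin D genes differed in direction. Ccnd2 had 14.13, 14.39 and 12.98 in divided bulge, against 13.25, 13.60 and 12.37 in undivided bulge, a difference of 0.76 ± 0.13 within mice (adjusted p = 0.000246) that did not pass without the mouse block (adjusted p = 0.377) or with the mouse as a random effect (adjusted p = 0.145). Ccnd3 had 8.70, 8.30 and 9.14 in divided bulge, against 10.90, 10.45 and 10.36 in undivided bulge (-1.86 ± 0.32). Ccnd1 differed by 0.02 ± 0.18 (adjusted p = 0.953, with 1 of its 3 probe sets of opposite sign). Mycl, a MYC family factor, had 10.31, 9.89 and 10.64 in divided bulge, against 7.22, 8.38 and 8.69 in undivided bulge (2.18 ± 0.40).

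Among 16 CDK inhibitors and pocket proteins 1 rose (6.25%, near the share of all genes), Cdkn3, a CDK-associated phosphatase that peaks in mitosis, at 1.73 ± 0.39, and it did not pass without mouse 1 (1.45, adjusted p = 0.0612). The inhibitors Cdkn1a (p21) and Cdkn1b (p27) differed by 0.71 ± 0.25 (adjusted p = 0.0605) and -0.40 ± 0.26 (adjusted p = 0.372). Cdkn1a had 13.16, 12.69 and 11.41 in divided bulge, against 11.75, 12.05 and 11.34 in undivided bulge, with nearly equal values in mouse 3. It passed without mouse 3 (1.02, adjusted p = 0.0305). With all 3 mice Cdkn1a passed where only the 9 PD21 arrays (adjusted p = 0.0298) or only the 6 bulge arrays (adjusted p = 0.0431) were fitted.

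Of 25 tested interferon response and antigen processing genes 9 rose and 0 fell in limma, with a median of 1.07 (36.0% higher, against 6.54% of all genes). At an unadjusted p under 0.05 the counts were 14 higher (56.0%, against 13.9% of all genes) and 0 lower. The count of 9 was 3 without mouse 1, 3 without mouse 2, 8 without mouse 3 and 4 without the mouse block. Psmb8, an immunoproteasome subunit, had 11.22, 10.83 and 10.93 in divided bulge, against 9.54, 7.64 and 9.31 in undivided bulge and 10.84, 10.40 and 10.66 in non-bulge (2.16 ± 0.30, adjusted p = 3.62e-05). B2m, the light chain of MHC class I, had 15.21, 14.89 and 13.90 in divided bulge, against 14.62, 14.15 and 13.39 in undivided bulge. Each mouse moved up by a similar step, 0.61 ± 0.13, while the groups overlapped, and B2m did not pass without the mouse block (adjusted p = 0.481) or with the mouse as a random effect (adjusted p = 0.238). Ddx58 (RIG-I), a sensor of viral RNA, had 6.80, 7.75 and 8.90 in divided bulge, against 6.29, 6.15 and 6.45 in undivided bulge (1.52 ± 0.45, adjusted p = 0.0258), and did not pass without mouse 2 (1.48, adjusted p = 0.107), without mouse 3 (1.05, adjusted p = 0.297) or by the mean of its probe sets (0.96, adjusted p = 0.0742). The response element of the printed B2m and Ddx58 windows was in 9 of 24 windows of tested members (37.5%), in 2 of 10 windows of those that rose (20%) and in 3.44% of all windows.

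Of 12 tested interleukin 1 family genes 5 rose (41.7%), Il33 among them, and 0 fell in limma, with a median of 1.25. The count of 5 was 3 without mouse 3. At an unadjusted p under 0.05 the counts were 8 higher (66.7%, against 13.9% of all genes) and 0 lower. Il1r2 had 10.48, 10.72 and 10.37 in divided bulge, against 7.84, 6.52 and 6.99 in undivided bulge and 11.35, 10.49 and 11 in non-bulge (3.41 ± 0.48). Il1rn, the receptor antagonist, had 11.08, 11.04 and 10.96 in divided bulge, against 9.20, 8.24 and 7.14 in undivided bulge, so the divided values lay close together while the undivided ones were scattered.

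Immediate early genes, which respond to stress and to tissue dissociation, changed in both directions. Of 27 tested 4 were higher (14.8%) and 1 lower (3.70%), and 0 were higher without mouse 1 or without the mouse block. At an unadjusted p under 0.05 the counts were 5 higher (18.5%, against 13.9% of all genes) and 2 lower (7.41%, against 11.6%). Egr2 and Dusp1 passed at 0.98 ± 0.25 and 0.78 ± 0.21, but neither passed without mouse 1 (adjusted p = 0.113 and 0.27) or without the mouse block (adjusted p = 0.219 and 0.234), nor with the mouse as a random effect (adjusted p = 0.0723 and 0.0848). Egr2 also did not pass without mouse 3 (adjusted p = 0.0752). Fos had 13.91, 13.24 and 13.12 in divided bulge, against 12.92, 12.83 and 11.72 in undivided bulge, and did not pass over all 18 arrays (0.93 ± 0.47, adjusted p = 0.219), while it did where only the 9 PD21 arrays were fitted (adjusted p = 0.00114). Jun differed by 0.17 ± 0.18.

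Of 25 glycolysis and hypoxia genes 4 rose (16%) and 1 fell (4%), with 2 higher without the mouse block. Epas1 (HIF-2α), an oxygen-regulated transcription factor, had 11.45, 12.03 and 11.35 in divided bulge, against 8.62, 9.01 and 7.38 in undivided bulge and 11.62, 12.26 and 12.10 in non-bulge (3.28 ± 0.32, adjusted p = 1.24e-06). Egln3, a prolyl hydroxylase that marks HIF factors for decay, rose by 1.85 ± 0.29 and the glucose transporter Slc2a1 by 0.84 ± 0.14. Slc2a1 did not pass without the mouse block (adjusted p = 0.0559). Among 24 sterol and fatty acid genes 3 rose (12.5%) and 0 fell in limma (6 and 4 at an unadjusted p under 0.05), and the higher count was 5 without mouse 2 and 1 without the mouse block. Scd1, a fatty acid desaturase, had 14.16, 13.54 and 13.49 in divided bulge, against 13.11, 13.04 and 12.38 in undivided bulge, and did not pass without the mouse block (adjusted p = 0.0521). Elovl6, a fatty acid elongase, rose by 1.33 ± 0.22. Of 27 oxidative phosphorylation genes and 25 ribosome biogenesis genes 0 passed in limma, with medians of 0.17 and 0.12 beside 0.07 over all genes. At an unadjusted p under 0.05, 3 and 2 of them were higher (11.1% and 8.0%, against 13.9% of all genes) and 0 lower (against 11.6%).

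Set against non-bulge cells of the same mice, which share the divided arrays with the comparison above, 49 genes passed (0.424%), all higher in divided bulge, and 0 were lower, while 604 were higher and 248 lower at an unadjusted p under 0.05. In the same fit undivided bulge differed from non-bulge in 1926 genes (16.6%), 1043 higher (9.02%) and 883 lower (7.63%). The count of 49 was 34, 36 and 17 without mouse 1, 2 and 3. Of the 132 genes described with values here 20 were higher in divided bulge than in non-bulge, by 1.30 (Fzd1) to 4.41 (Cd34), and they included Lhx2, Tbx1, Dkk3, Sfrp1, Fzd2, Grem1, Fstl1, Id4, Sema3e, Cxcr4 and Cspg4. For Fstl1 the difference from non-bulge, 3.07, was larger in size than that from undivided bulge, -2.09 ± 0.39. At adjusted p under 0.05 in both comparisons 0 genes were higher than both other fractions or lower than both, and at an unadjusted p under 0.05 in both 70 were higher and 51 lower.

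**Figure D5:**
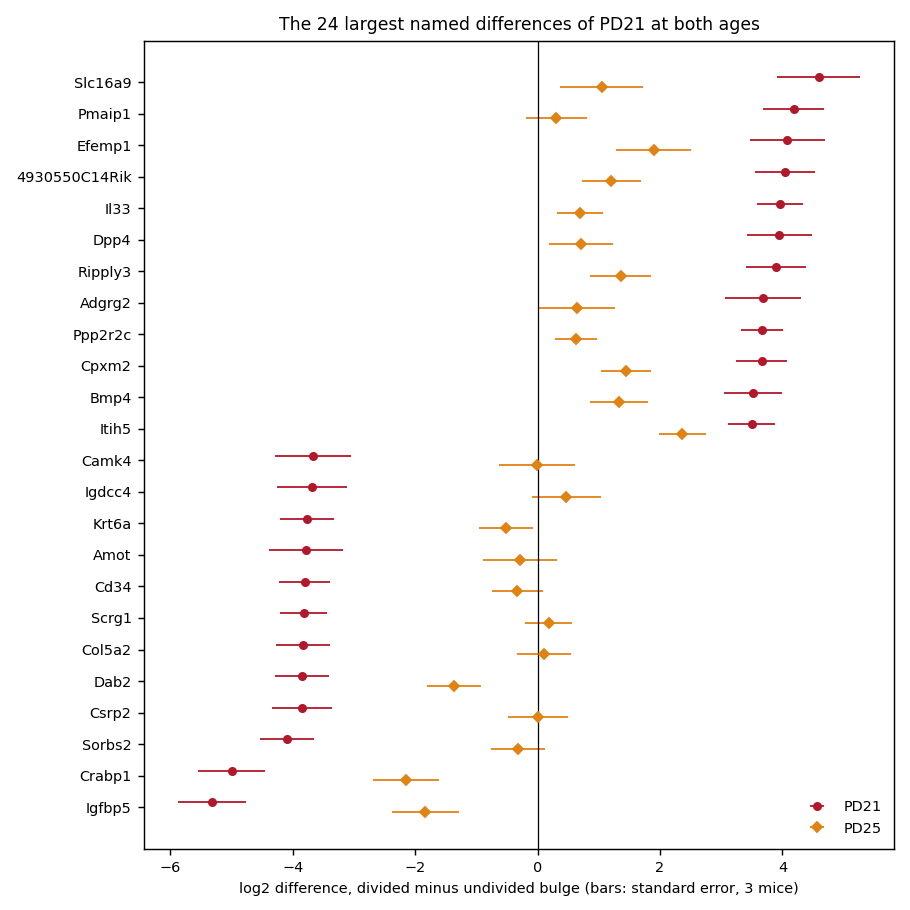
Difference between divided and undivided bulge (x axis, log2, bars are SE, 3 mice per age) for the 12 largest increases and 12 largest decreases named at PD21, at PD21 (red circles) and in other mice at PD25 (orange diamonds). The SE is pooled over fractions and ages, so it is the same at PD21 and PD25 for a gene and is not the spread of the mice of 1 age. At PD21 they span -5.32 to 4.59, and at PD25 -2.15 to 2.36.

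The same contrast in 3 other mice at PD25 gave few calls: 10 genes passed (0.0864%), all higher in divided cells, with 1020 at an unadjusted p under 0.05. The difference between the ages was itself tested and passed for 506 genes (4.37%), 193 (1.67%) with a more positive and 313 (2.71%) with a more negative difference at PD21. The calls at PD25 numbered 6, 16 and 5 without PD21 mouse 1, 2 and 3, which change only the shared spread, and the 506 became 167, 342 and 328. In the bulge stem cell list 22 of 38 members differed between the ages, with a median of -1.56 at PD21 and 0.01 at PD25. Itih5 was the 1 of the 24 genes named by size that passed at PD25 as well, at 2.36 ± 0.38 (adjusted p = 0.015), beside 3.50 ± 0.38 at PD21, and the age term for it missed the threshold (adjusted p = 0.272).

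The 6 genes with the lowest p for the difference between the ages all fell at PD21. Kank2, an adaptor of focal adhesions, differed by -1.94 ± 0.20 at PD21 and 0.44 ± 0.20 at PD25. Cbx6, a Polycomb chromodomain protein, had 8.53, 9.06 and 10.56 in divided bulge at PD21, against 11.75, 12.08 and 12.15 in undivided bulge, and differed by 0.41 ± 0.27 at PD25. Lgals1 (galectin-1), a glycan-binding secreted protein, had 11.04, 10.43 and 11.49 in divided bulge at PD21, against 13.01, 13.40 and 13.14 in undivided bulge, and differed by 0.53 ± 0.26 at PD25. Timp2, Fzd2 and Scrg1 completed these 6, at 0.12 ± 0.25, 0.41 ± 0.28 and 0.18 ± 0.39 at PD25.

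Cell cycle lists also differed between the ages. Of the mitosis list 13 of 40 members differed between the ages, where 4.37% of all genes did, with a median of 0.85 at PD21 and -0.63 at PD25. Of the DNA replication list 10 of 31 did, with medians of 0.31 and -0.68. At PD25 the mitosis median was -1.37, 0.19 and -0.75 in the 3 mice, so mouse 2 stood apart there in direction. Mki67 differed by 0.85 ± 0.19 at PD21 and by -0.23 ± 0.19 at PD25 (adjusted p of the difference between ages 0.0213). Interferon genes had 1 of 25 members that differed between the ages, near the 4.37% of all genes, so this count sets the list apart in neither direction. Their medians were 1.07 at PD21 and 0.41 at PD25.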

How the data were processed

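Per the labels, 5 ng of RNA per sorted fraction was amplified and hybridised to Affymetrix MOE 430 2.0 arrays. The deposited values are linear probe set intensity signals made with GCOS, per the submitters' processing notes, which name no version. Each array's 2% trimmed mean was 500, so the values were taken as scaled by the authors. Signals of dim probe sets are noisy, and log2(signal + 16) understates their changes. The number of arrays limits the precision.

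Of 45101 probe sets, 64 were controls, and GEO's annotation listed 1 gene symbol for 34945, several for 932 and none for 9160. RefSeq matched 34754 of those with 1 symbol. Probe sets above their array's median on at least 3 of 18 arrays were kept, and the brightest stood for its gene, leaving 11569 of 18193 genes. A gene with several probe sets was noted where their signs disagreed, and for some genes the range of their differences is given. Other probe sets of a gene can show a smaller change than the 1 used.

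All 18 arrays were fitted with limma 3.58.1 in R 4.3.3 (lmFit, eBayes with a trend), with group and mouse within age as terms, 8 residual and 13.2 prior degrees of freedom, and Benjamini-Hochberg adjustment within each comparison. The mouse numbers come from the titles. The numbers were used as pairs because the titles give them. Deviations from group means correlated at 0.173 to 0.387 between same-numbered divided and undivided arrays and at -0.226 to 0.034 between others. Within a group the deviations of a gene cancel out, so higher r for some pairs brings lower r for others. These r also cannot tell a shared mouse from shared handling of the arrays. The labels do not name separate litters or sorts. The mouse block removes differences in level between mice. The p-values therefore set the mean difference between fractions against how far such differences varied from mouse to mouse. That spread was pooled over the fractions and ages of these mice. It was also drawn toward a trend over all genes, with the weight of the prior degrees of freedom.

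The arrays compared and the 51 gene lists (1031 genes) were chosen with earlier results of these data known. Genes were named by size of change (12 each way, among the separated and brighter genes described above), by list (up to 5 members that passed, largest first), as sorting or cell cycle markers, and by the difference between ages. Of the 198 genes so named, 130 are described with values, and those left out were chosen with their values and sensitivity known. Anln and B2m were added for their promoters. The script was tested on simulated data. Figures were drawn with matplotlib 3.10.9.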

Additional observations from a re-analysis of the deposited data

Results flagged for a closer look

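Each gene below had a divided minus undivided difference that differed between PD21 and PD25 by the interaction term of the limma fit, with 3 mice at each age. Of the 132 genes described, 84 met this rule (adjusted p up to 0.049), against 4.37% of all genes tested. The genes were named from their difference at PD21, which enters the interaction, so this share is not independent of the choice. Values are the PD21 difference minus the PD25 difference on the log2 scale, and negative values mean that divided cells stood lower, relative to undivided ones, at PD21 than at PD25. The ages were measured in different mice, and age and set of mice cannot be told apart.

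Negative values were found for 54 genes. Among bulge markers and transcription factors they were -3.47 for Cd34, -3.49 for Igfbp5, -2.47 for Lhx2, -2.19 for Sox9, -1.92 for Runx1, -2.59 for Tbx1, -2.47 for Hoxc13 and -2.55 for Mitf. Among the largest decreases of PD21 they were -2.84 for Crabp1, -3.78 for Sorbs2, -3.86 for Csrp2, -2.48 for Dab2, -3.94 for Col5a2, -4.00 for Scrg1, -3.50 for Amot, -3.26 for Krt6a, -4.16 for Igdcc4 and -3.66 for Camk4. In the Wnt lists Dkk3 had -2.75, Sfrp1 -2.62, Wnt5b -3.43, Fzd1 -2.03, Fzd2 -2.95 and Lgr5 -3.80. In the BMP and TGF-beta lists Grem1 had -2.40, Fstl1 -2.37, Id3 -1.75, Id4 -1.95, Ltbp1 -2.13 and Ltbp2 -3.31. Hedgehog co-receptors had -1.66 (Boc) and -1.33 (Gas1), and growth factor genes -2.73 (Fgf1), -2.35 (Fgfr1), -1.99 (Il17rd), -0.98 (Egfr) and -1.40 (Igfbp7). Guidance and chemokine genes had -2.57 (Sema3e), -2.45 (Cxcr4) and -2.66 (Cxcl12). Matrix and adhesion genes had -3.03 (Col6a1), -3.11 (Itga1), -2.39 (Itgb6), -2.34 (Lamb1), -4.75 (Gpc6), -2.54 (Egfl6), -2.98 (Cspg4), -3.71 (Bgn), -2.95 (Timp2) and -1.17 (Cadm1). Calml3 had -2.07, Kank2 -2.39, Cbx6 -3.02 and Lgals1 -2.72.

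Positive values were found for 30 genes. Among the largest increases of PD21 they were 3.55 for Slc16a9, 3.87 for Pmaip1, 2.84 for 4930550C14Rik, 3.27 for Il33, 3.24 for Dpp4, 2.54 for Ripply3, 3.05 for Ppp2r2c and 2.22 for Cpxm2. In signalling lists Wnt3 had 3.03, Apcdd1 0.98, Bmpr1b 2.87 and Fgfbp1 1.22. Epidermal, sebaceous and metabolic genes had 1.22 (Gata3), 2.45 (Tgm3), 1.54 (Mgst1), 1.78 (Epas1), 1.30 (Scd1) and 1.71 (Elovl6). Cell cycle genes had 1.08 (Mki67), 1.76 (Cdc20), 1.86 (Anln), 2.13 (Ccnb2), 1.79 (Pola1), 1.72 (Lig1), 2.08 (Cdkn3), 0.87 (Ccnd2) and 2.25 (Mycl). Psmb8 had 1.67, Il1rn 2.54 and Dusp1 1.35.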

How the results depend on the processing

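Of the 200 genes named by the rule or shown with a promoter, 189 passed in the fit as reported, and 111 passed in each of 15 other settings that could test them (the filter of 9 arrays kept 192). None of the 189 changed direction in these settings, while Itga6, Ccnd1 and Jun, which did not pass, changed sign in 2 or 3 of them. The 132 genes described were trimmed from that set with these outcomes known: 100 of the 121 described genes that passed did so in every setting, against 11 of the 68 not described, so the described genes are steadier than the rest. Without the mouse block (no replicate block) 44 of the 200 lost their call, and the counts were 958 for divided against undivided bulge at PD21 (452 higher, 506 lower), 21 for divided bulge against non-bulge, 1278 for undivided bulge against non-bulge, 0 for PD25 (limma, beside 1020 at an unadjusted p under 0.05 with the block) and 137 for the difference between ages. With the replicate block as a random effect (correlation 0.231 between arrays of a mouse) PD25 gave 21. Leaving out 1 mouse gave 815 to 1043 genes at PD21 (385 to 513 higher, 430 to 564 lower), 17 to 36 and 1131 to 1433 for divided and undivided bulge against non-bulge, 5 to 16 at PD25 and 167 to 342 for the ages. At adjusted p under 0.01 the counts were 891 (415 higher, 476 lower), 22, 1147, 0 and 172 in the same order. Divided bulge against non-bulge gave 9 without the variance trend, 149 with array weights and 28 by the mean of the probe sets, and the ages gave 178 without the trend. PD25 gave 18 at a pseudocount of 64, 17 without the dim filter, 1 without the trend and 35 with array weights. The main count stayed within 1.5 times of 1533 under the other settings, from 1185 with a 2-fold minimum to 1698 with array weights. The median difference of all genes was 0.05 with quantile normalisation and 0.07 without it, and higher genes were 48.2% and 49.4% of the calls. The causes of these changes were not tested. The noise of dim signals limits the folds, and 3 mice limit the calls.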
